A study of Mus musculus with 6 samples.

Results

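The 7 genes described here mark the mural cells of blood vessels: Acta2, Myh11, Tagln, Cnn1 and Des for vascular smooth muscle, and Pdgfrb and Rgs5 for pericytes. They were chosen by name, through the transcript accession of each array probe, and each had 1 probe, so 7 of 32496 genes or unnamed transcripts on the array are members. Their level was read in the hypothalamus of 16-week-old male mice on the C57BL/6J background. There were 6 single-colour arrays, 2 for each genotype. All mice carried floxed alleles of Trsp, the gene of the transfer RNA that inserts selenocysteine into selenoproteins. TrspFF mice (TrspFlox/Flox, no Cre named) were the controls. Trsp-RIPKO mice had the floxed alleles with RIP-Cre, Cre under the rat insulin promoter, which is active in pancreatic beta cells and in part of the hypothalamus. Trsp-Ins1KO mice had them with Ins1-Cre, in which Cre follows the insulin gene Ins1 of beta cells. According to the series text, conditional loss of Trsp raises oxidative stress, and the comparison asks what that does to hypothalamic transcripts. The labels do not say which hypothalamic cells either Cre acts in, no group with Cre alone was analysed here, and no probe for Trsp was found, so the deletion itself was not checked.

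Arterioles are wrapped by smooth muscle cells that hold a contractile apparatus of smooth muscle actin and myosin, whereas capillaries carry pericytes embedded in the basement membrane they share with the endothelium. Endothelial cells secrete PDGF-B, which recruits and retains mural cells through the receptor PDGFR-beta, and serum response factor with its myocardin-family partners drives the contractile genes by binding CArG boxes. In brain, mural cells set local blood flow and help to maintain the blood-brain barrier, and the arcuate nucleus borders a capillary bed without that barrier in the median eminence.

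The level used throughout is the background-subtracted signal of a probe on the log2 scale, relative to the 75th percentile of all probes on that array, so a level of 0 equals that percentile and a difference of 1 is a doubling. The 75th percentile signal lay between 1391 and 2136, from 68.9% to 72.0% of probes were well above background, and 0 were saturated. All 12 neuropeptide markers chosen for hypothalamus were well above background on every array. The scanner files and the deposited table of values disagree on which knockout is which. Each knockout array correlated with the table column of the other knockout at 0.999998 or more and with the column of its own name at -0.22 or -0.20. The groups below follow the scanner files; under the table's names every statement on one knockout passes to the other, and differences between them turn around. Both TrspFF arrays shared slide 1 and scan 1 and all 4 knockout arrays shared slide 2 and scan 2, so for comparisons against TrspFF, slide and genotype cannot be told apart. Only the comparison of the knockouts lies within a slide. The labels do not say whether the arrays of a genotype came from separate animals, so p-values here reflect the spread between arrays alone, which may be technical.

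Promoters from the RefSeq table of build GRCm38.p6 were at hand for 4 of the 7 genes (Acta2, Cnn1, Des and Rgs5). The 250 bases before the start of Acta2 and of Cnn1 are printed because these genes bracket the smooth muscle members: Acta2 differed most between the knockouts, and Cnn1 least. Acta2 lies on chromosome 19 (chr19:34240336-34255585, minus strand) and its window is chr19:34255374-34255623. Cnn1 lies on chromosome 9 (chr9:22099221-22109221, plus strand) and its window is chr9:22099003-22099252. Both windows reach into the outer bounds of the gene, which include other start sites. Capitals mark matches to a CArG-like motif, in which CC, 6 bases of which at most 1 is G or C, and GG follow each other, searched on both strands.
Acta2: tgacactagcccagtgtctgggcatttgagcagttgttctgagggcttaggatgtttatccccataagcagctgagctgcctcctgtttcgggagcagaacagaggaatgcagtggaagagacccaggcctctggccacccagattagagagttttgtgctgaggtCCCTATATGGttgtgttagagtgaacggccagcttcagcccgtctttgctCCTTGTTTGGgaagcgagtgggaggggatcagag
Cnn1: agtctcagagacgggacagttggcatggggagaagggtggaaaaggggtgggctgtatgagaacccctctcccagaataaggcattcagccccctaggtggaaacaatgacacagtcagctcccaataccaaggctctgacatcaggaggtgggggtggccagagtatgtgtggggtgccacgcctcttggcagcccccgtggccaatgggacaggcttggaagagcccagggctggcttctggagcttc
The Acta2 window held 2 such matches, CCCTATATGG at 84 to 75 bases before the start and CCTTGTTTGG at 34 to 25 bases before it, and the Cnn1 window held 0. This relaxed motif was in 8.59% of 32851 promoter windows of the same length. It was searched after the strict CArG box, with only A or T in the core, was found in 0 of the 4 members' windows and in 1.47% of all windows. Among the further smooth muscle genes named below, 3 of 19 windows held the strict box, 1 of Myl9 and 2 of Ldb3, and 0 of 22 windows of further pericyte genes did. The bases CANNTG, an E-box, were in 3 of the 4 members' windows and in 66.2% of all windows, and TATAAA was in 0 of 4 and in 12.4%. A match describes letters in this window and does not show binding.

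Acta2, the actin isoform of smooth muscle contractile filaments, had levels of -1.10 and -1.18 in TrspFF, -1.23 and -0.87 in Trsp-RIPKO, and -1.81 and -1.91 in Trsp-Ins1KO. Both Trsp-Ins1KO arrays were below the other 4, while TrspFF and Trsp-RIPKO overlapped. The group means ran from -1.05 ± 0.25 (SD, n = 2) in Trsp-RIPKO through -1.14 ± 0.06 in TrspFF to -1.86 ± 0.07 in Trsp-Ins1KO. Its probe was printed in 10 spots per array, which were averaged, whereas the other members except Des rest on 1 spot.

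Myh11, the heavy chain of smooth muscle myosin (chr16:14194527-14292188), had levels of -5.33 and -4.99 in TrspFF, -5.45 and -5.21 in Trsp-RIPKO, and -6.03 and -6.06 in Trsp-Ins1KO. The order of arrays resembled that of Acta2, with both Trsp-Ins1KO arrays lowest. The probe was faint, with a processed signal of 26.5 to 57.5, and it was well above background on only 1 of the 2 Trsp-Ins1KO arrays.

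Tagln encodes transgelin, an actin-binding protein of the smooth muscle cytoskeleton (chr9:45929628-45936058). Its levels were 0.48 and 0.05 in TrspFF, -0.25 and -0.01 in Trsp-RIPKO, and -0.36 and -0.45 in Trsp-Ins1KO. The 3 groups did not overlap and lay in the order TrspFF, Trsp-RIPKO, Trsp-Ins1KO, but the gap of 0.43 between the TrspFF arrays was larger than either gap between neighbouring groups.

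Cnn1, calponin, which restrains actomyosin in smooth muscle, had levels of -3.38 and -3.84 in TrspFF, -3.93 and -3.72 in Trsp-RIPKO, and -3.57 and -3.82 in Trsp-Ins1KO. All 3 groups overlapped, and the range over the 6 arrays was 0.55 against 1.04 for Acta2 and 1.07 for Myh11. Des encodes desmin, the intermediate filament of muscle cells (chr1:75360292-75368579). Its levels of -6.69 and -6.89 in TrspFF, -6.64 and -6.63 in Trsp-RIPKO, and -7.26 and -6.94 in Trsp-Ins1KO were not well above background on any of the 6 arrays. Des was therefore not tested, and the order of its values carries no information.

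Pdgfrb, the receptor through which pericytes respond to PDGF-B (chr18:61045127-61085067), had levels of -1.77 and -1.21 in TrspFF, -1.04 and -1.07 in Trsp-RIPKO, and -1.57 and -2.02 in Trsp-Ins1KO. Both Trsp-RIPKO arrays were above the other 4, and the Trsp-Ins1KO arrays overlapped TrspFF, whose arrays stood 0.56 apart. Rgs5, a regulator of G-protein signalling abundant in brain pericytes (chr1:169655501-169695813), had levels of -0.62 and -0.28 in TrspFF, -0.58 and -0.41 in Trsp-RIPKO, and -1.13 and -0.76 in Trsp-Ins1KO. The Trsp-RIPKO arrays lay inside the TrspFF range, and both Trsp-Ins1KO arrays were below it. The plot of levels by genotype shows these values.

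**Figure D1:**
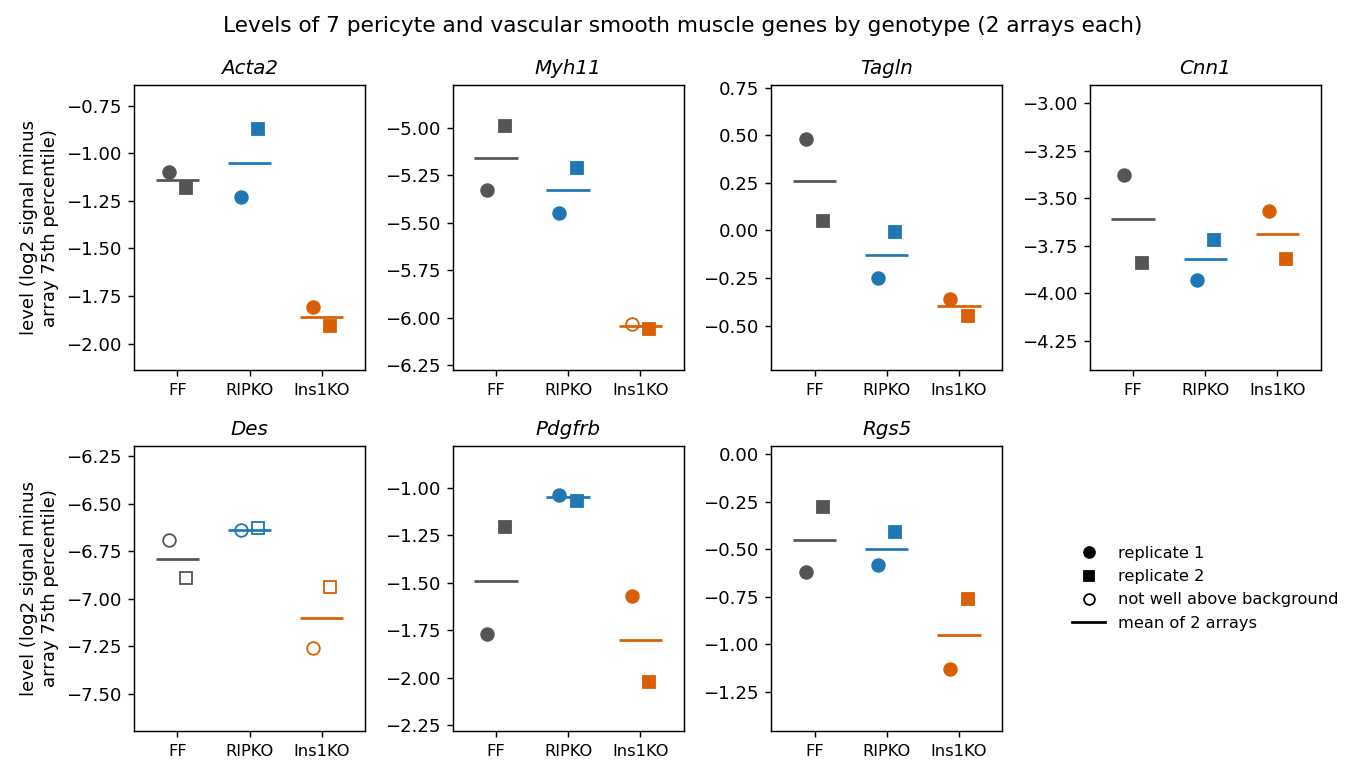
Level (log2 signal minus the array's 75th percentile) of each of the 7 genes on the 6 arrays, with circles for replicate 1, squares for replicate 2, open symbols for arrays not well above background and a line at the mean of 2 arrays. Every panel spans the same range of log2 units. The Trsp-Ins1KO arrays are lowest for Acta2, Myh11, Tagln and Rgs5, and Des is not well above background on any array.

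The first comparison asked how the members differ between Trsp-Ins1KO and TrspFF, with limma fitted on all genes and Benjamini-Hochberg adjustment over 22863 genes. All 6 tested members had lower means in Trsp-Ins1KO, with a median difference of -0.58 against 0.02 over all tested genes. None passed the threshold of 0.05: 0 of 6 were called, where 1.82% of all genes were called. At an unadjusted p under 0.05, 4 of 6 members were lower, against 12.6% of all genes, and the same number had groups that did not overlap, against 26.4%. Myh11 is 1 of the 4 in both counts. In a bulk tissue extract, fewer mural cells and less of these RNAs per cell cannot be told apart.

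Among the contractile genes, Acta2 was 0.72 lower in Trsp-Ins1KO (SE 0.14, 95% interval -1.09 to -0.35, 1.65-fold, limma adjusted p = 0.0799), and Tagln 0.66 lower (SE 0.18, interval -1.13 to -0.20, 1.59-fold, adjusted p = 0.116). Myh11 was fitted at 0.89 lower (SE 0.15, interval -1.28 to -0.49, adjusted p = 0.0688). It was kept through the other genotypes, with 1 of 2 Trsp-Ins1KO arrays well above background, and with normexp its difference was -0.45, so the size of this value is uncertain. Acta2 and Tagln, which were well above background on every array, had estimates above 3 times their standard errors without passing the adjustment. Cnn1 differed by -0.08 (SE 0.20, adjusted p = 0.812), with an interval of -0.59 to 0.43 that also holds a decrease of the size estimated for Rgs5. Of the pericyte genes, Rgs5 was 0.50 lower (SE 0.19, interval -0.98 to -0.02, 1.41-fold, adjusted p = 0.184) and Pdgfrb 0.31 lower (SE 0.24, interval -0.93 to 0.32, adjusted p = 0.452).

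The arrays behind these values weigh unequally. With TrspFF 2 left out the Pdgfrb difference was -0.03 and with TrspFF 1 left out it was -0.58, so it rests on which control array is kept. The Tagln difference was -0.45 without TrspFF 1, and the Rgs5 difference was -0.32 without Trsp-Ins1KO 1 and -0.33 without TrspFF 2. Acta2 stayed between -0.77 and -0.67 whichever array was left out, and it was the only member called under any alternative. With a variance trend and robust eBayes its limma adjusted p was 0.0481, in a fit that called 5.42% of all genes.

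In the comparison of Trsp-RIPKO with TrspFF, the members did not lean one way: 2 had higher and 4 lower means, and their median difference was -0.11 against -0.01 over all genes. By limma 0 of 6 members were called, with 1.66% of all genes called, and 0 had an unadjusted p under 0.05, where 9.71% of all genes were higher and 14.2% lower at that p. Pdgfrb was the only member with higher levels on both Trsp-RIPKO arrays (28.0% of all genes were), at 0.44 (SE 0.24, interval -0.19 to 1.06, adjusted p = 0.331). Tagln was the only one with lower levels on both (30.2% of all genes), at -0.39 (SE 0.18, interval -0.85 to 0.07, adjusted p = 0.261). Both rest on which control array is kept: Pdgfrb differed by 0.16 without TrspFF 1 and 0.71 without TrspFF 2, and Tagln by -0.17 and -0.61. Acta2 differed by 0.09 (interval -0.28 to 0.46), Myh11 by -0.18 (interval -0.57 to 0.22), Cnn1 by -0.21 (interval -0.72 to 0.30) and Rgs5 by -0.05 (interval -0.53 to 0.43). The Acta2 interval here does not reach -0.72, its estimate in Trsp-Ins1KO, whereas the Rgs5 interval holds -0.50, the estimate of Rgs5 there. Both comparisons use the same 2 TrspFF arrays and are not independent.

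The difference between the knockouts was tested directly on slide 2. Trsp-RIPKO had the higher mean for 5 of 6 members, all except Cnn1, and the median difference was 0.58 against -0.05 over all genes. None of the 6 was called by limma, where 0.0175% of all genes were. At an unadjusted p under 0.05, 3 members were higher, against 7.64% of all genes, and 5 had all Trsp-RIPKO levels above the Trsp-Ins1KO levels, against 22.9% of all genes. Myh11 is in both counts and in the median. It was kept through the other genotypes, with 1 of 2 Trsp-Ins1KO arrays well above background. Acta2 differed by 0.81 (SE 0.14, interval 0.44 to 1.18, 1.75-fold), Pdgfrb by 0.74 (SE 0.24, interval 0.12 to 1.37, 1.67-fold) and Myh11 by 0.71 (SE 0.15, interval 0.31 to 1.11, 1.64-fold), each with a limma adjusted p of 0.263. Rgs5 differed by 0.45 (interval -0.03 to 0.93, adjusted p = 0.278), Tagln by 0.28 (interval -0.19 to 0.74, adjusted p = 0.411) and Cnn1 by -0.13 (interval -0.64 to 0.38, adjusted p = 0.723). Fitted on the 4 knockout arrays alone, the estimates are unchanged by construction and 1.39% of all genes were called. In that fit Acta2 had a limma adjusted p of 0.111, Myh11 of 0.0927 and Pdgfrb of 0.145. Acta2 and Pdgfrb were the members farthest apart between the knockouts, at 0.74 and 0.62 also with normexp, whereas the faint Myh11 differed by 0.29 with normexp. Leaving out single arrays moved Acta2 between 0.63 and 0.99, Pdgfrb between 0.52 and 0.97, Rgs5 between 0.27 (without Trsp-Ins1KO 1) and 0.64, and Tagln between 0.16 (without Trsp-RIPKO 2) and 0.40.

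**Figure D2:**
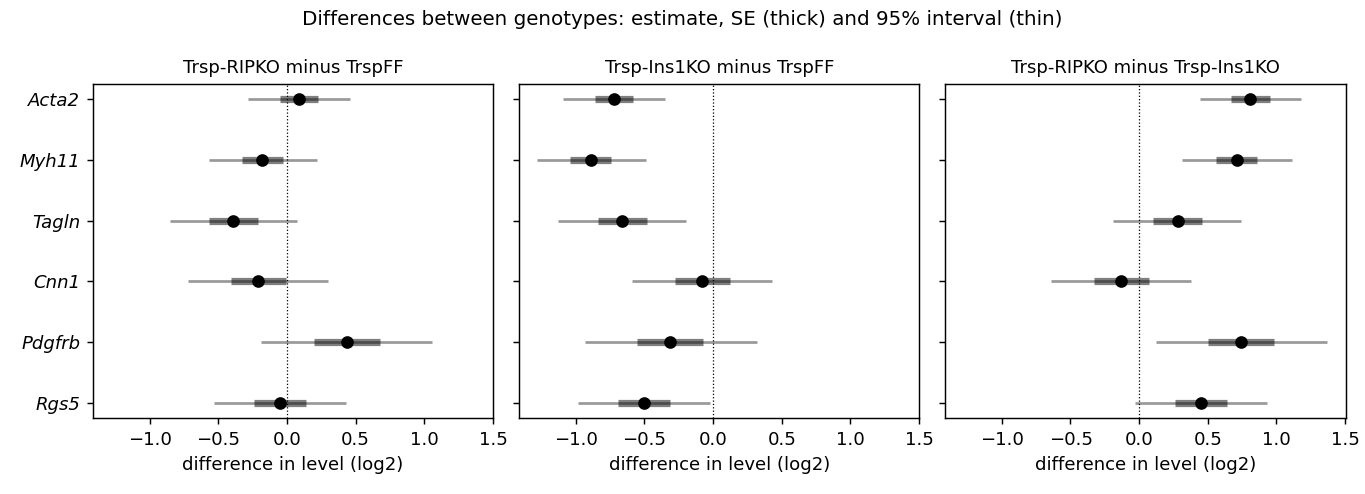
Differences in level (log2) for the 6 tested genes in the 3 comparisons, as the limma estimate (point), its SE (thick bar) and 95% interval (thin bar), with a dotted line at 0. Intervals lie wholly below 0 for Acta2, Myh11, Tagln and Rgs5 in Trsp-Ins1KO minus TrspFF and wholly above 0 for Acta2, Myh11 and Pdgfrb between the knockouts; 0 intervals exclude 0 in Trsp-RIPKO minus TrspFF.

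The members varied along different patterns over the 6 arrays. After centring each gene on its own mean, the smallest root mean square difference among the 15 pairs was 0.170, between Acta2 and Myh11, and the largest was 0.480, between Cnn1 and Pdgfrb. Myh11 and Rgs5 came next at 0.198, whereas Cnn1 was nearest to Tagln at 0.249. Searched over all tested genes with a usual symbol and an SD of at least 0.5 times that of the member, the pattern nearest to Myh11 was that of Trim47 (0.0547) and then Esam (0.0550), an adhesion molecule of endothelial junctions. Acta2 was nearest to Rbm47 (0.0967), Tagln to Rhbdf2 (0.0890), Cnn1 to Wdr95 (0.0221), Pdgfrb to Zdhhc8 (0.0583) and Rgs5 to Spns2 (0.0533), a sphingosine-1-phosphate transporter. With only 6 arrays and from 5709 to 12605 candidate genes per member, these matches are descriptions.

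Of 20 further smooth muscle genes 16 were tested, and limma called 0 in any of the 3 comparisons. Over all genes, 1.82% were called in Trsp-Ins1KO and 1.66% in Trsp-RIPKO against TrspFF, and 0.0175% between the knockouts. Lower means were found for 46.9% of all genes in Trsp-Ins1KO and 51.8% in Trsp-RIPKO, each against TrspFF. Between the knockouts, 57.9% of all genes had the lower mean in Trsp-RIPKO. These shares also stand beside the counts of calls and of directions for the members and for the lists that follow. The median difference of the 16 genes was -0.18 in Trsp-Ins1KO and 0.07 in Trsp-RIPKO, each against TrspFF. Between the knockouts it was 0.18, and 12 of 16 were higher in Trsp-RIPKO. All Trsp-RIPKO levels were above those of Trsp-Ins1KO for 8 of 16, against 22.9% of all genes. They were all below for 3 of 16, against 8170 of all 22863 tested genes. These 3 were Kcnmb1 (-1.13), Synpo2 (-0.84) and Ppp1r12b (-0.32). Kcnmb1 was well above background on 1 of 2 Trsp-RIPKO arrays. Myl9, the regulatory light chain of smooth muscle myosin, had levels of 1.86 and 1.90 in TrspFF, 2.03 and 2.17 in Trsp-RIPKO, and 1.77 and 1.52 in Trsp-Ins1KO. Its groups did not overlap, with a difference of 0.46 between the knockouts (SE 0.12, limma adjusted p = 0.263). Mylk, the kinase that phosphorylates that light chain, was 0.33 lower in Trsp-Ins1KO than in TrspFF (adjusted p = 0.138). Itga8, an integrin of smooth muscle, differed by 1.27 between the knockouts (SE 0.45, adjusted p = 0.264), with Trsp-Ins1KO levels of -3.06 and -4.41 that stood far apart. Smtn, smoothelin, was 0.45 higher in Trsp-RIPKO than in TrspFF (adjusted p = 0.154), and Ppp1r12b, a myosin phosphatase subunit, 0.54 lower (adjusted p = 0.158). Sncg went against the members, with differences from TrspFF of 0.67 in Trsp-RIPKO (adjusted p = 0.194) and 0.61 in Trsp-Ins1KO (adjusted p = 0.207); it is also a neuronal gene.

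All 20 further pericyte genes were tested, and limma again called 0 in each comparison. Between the knockouts 18 of 20 were higher in Trsp-RIPKO, with a median of 0.50. Of the 20, 14 had all Trsp-RIPKO levels above those of Trsp-Ins1KO, against 22.9% of all genes. The other direction, with all Trsp-RIPKO levels below, held for 2 of 20, against 8170 of all 22863 tested genes. Against TrspFF the median was -0.27 in Trsp-Ins1KO, where 17 of 20 were lower, and 0.28 in Trsp-RIPKO, where 15 of 20 were higher. Tbx18 is among the 18 higher between the knockouts and the 17 lower in Trsp-Ins1KO. It was kept through the other genotypes, with 1 of 2 Trsp-Ins1KO arrays well above background. Kcnj8, a subunit of the pericyte potassium channel gated by ATP, had levels of -4.60 and -3.72 in TrspFF, -3.84 and -3.82 in Trsp-RIPKO, and -4.78 and -4.77 in Trsp-Ins1KO. The knockouts were thus tight and apart by 0.95 (SE 0.29, limma adjusted p = 0.263; 0.0365 on the 4 knockout arrays alone), while the TrspFF arrays spanned most of that gap. Atp13a5, a pericyte ATPase, differed by 0.90 between the knockouts (SE 0.27) and Vtn, vitronectin, which pericytes deposit around capillaries, by 0.53 (SE 0.17), both with an adjusted p of 0.263. P2ry14, a receptor of nucleotide sugars, was 0.70 lower in Trsp-Ins1KO than in TrspFF (adjusted p = 0.179). Zic1 and Mcam did not share this pattern. Zic1, which neurons also express, had levels of 3.61 on both TrspFF arrays, 3.29 on both Trsp-RIPKO arrays, and 3.64 and 3.67 in Trsp-Ins1KO (Trsp-RIPKO against TrspFF adjusted p = 0.107). With normexp that difference was -0.65 and was called (limma adjusted p = 0.0403), in a fit that called 1.78% of all genes. Mcam was lower in both knockouts, by 0.50 in Trsp-RIPKO (adjusted p = 0.109) and 0.30 in Trsp-Ins1KO (adjusted p = 0.202).

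**Figure D3:**
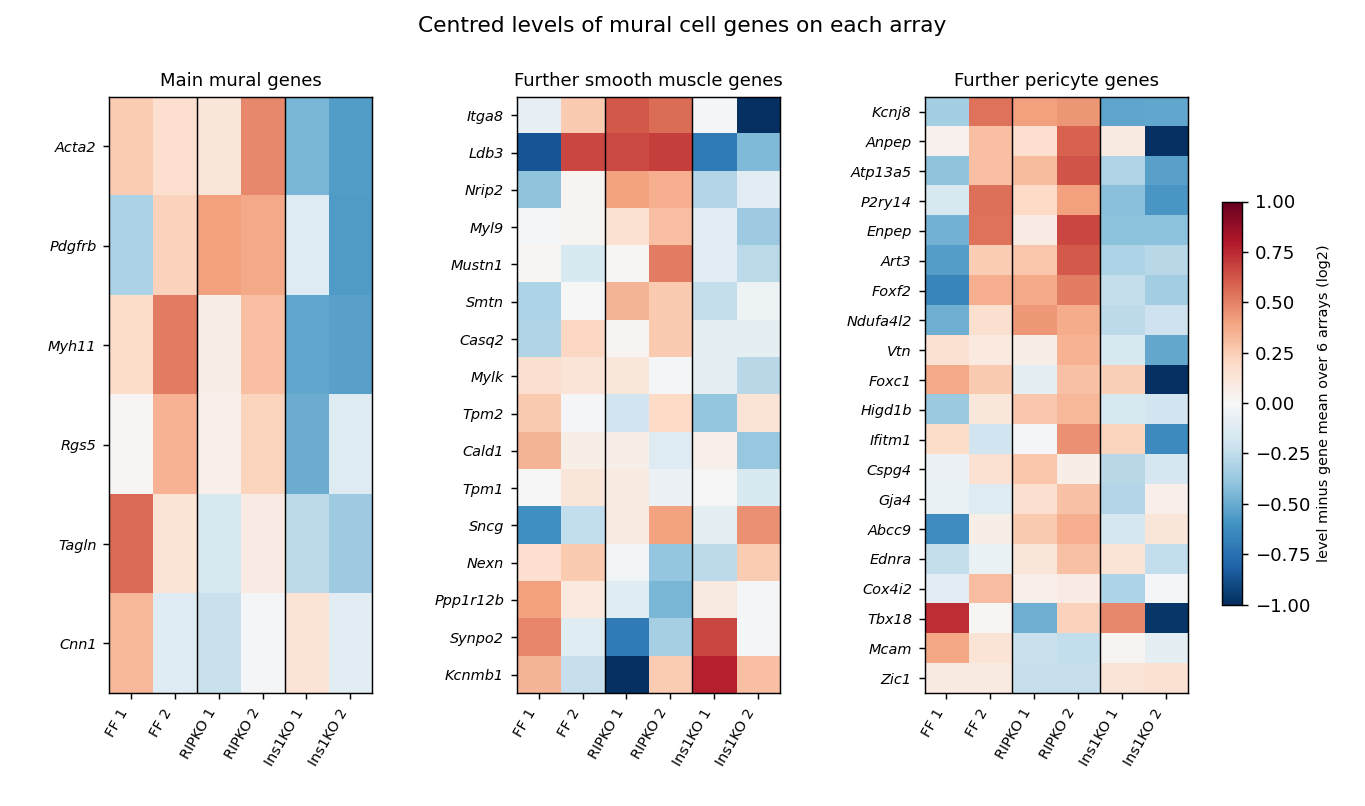
Level of each tested gene minus its mean over the 6 arrays (log2, colours saturate at 1 and -1) for the 6 main mural genes, 16 further smooth muscle genes and 20 further pericyte genes, ordered by the difference between the knockouts. Most pericyte rows are red in Trsp-RIPKO and blue in Trsp-Ins1KO, and TrspFF 1 is below TrspFF 2 for 14 of 20.

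In the PDGF pathway, 16 of 16 genes were tested, 0 were called in any comparison, and the medians were -0.04 in Trsp-Ins1KO and -0.05 in Trsp-RIPKO against TrspFF, and -0.05 between the knockouts. Pdgfb, the endothelial ligand of Pdgfrb, had levels of -0.59 and -0.06 in TrspFF, 0.20 and 0.20 in Trsp-RIPKO, and -0.85 and -0.73 in Trsp-Ins1KO. Like its receptor it was highest on both Trsp-RIPKO arrays, here with all 3 groups apart. It differed by 0.99 between the knockouts (SE 0.19, interval 0.50 to 1.49, 1.99-fold, limma adjusted p = 0.263), and in the fit of the 4 knockout arrays alone it was called (adjusted p = 0.0416). Pdgfd, another ligand of this receptor, differed by 1.10 between them (SE 0.31, adjusted p = 0.263) at levels of -6.15 to -4.61, near the faint end of the arrays. Pdgfa, which signals mainly through the alpha receptor, lay between 3.37 and 3.51 on all 6 arrays, and that receptor, Pdgfra, between -0.21 and -0.15. Rasa1, a GTPase-activating protein that binds the activated receptor, was lower than in TrspFF by 0.58 in Trsp-RIPKO (adjusted p = 0.0757) and by 0.47 in Trsp-Ins1KO (adjusted p = 0.0927). In Trsp-RIPKO it was called with normexp, at -0.68 (limma adjusted p = 0.0415).

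Of 22 regulators of smooth muscle genes 20 were tested, with 0 called. Myocd, myocardin itself, was among those not tested. Mrtfa, a myocardin-related partner of serum response factor, had levels of 1.74 and 1.72 in TrspFF, 1.55 and 1.35 in Trsp-RIPKO, and 1.31 and 1.15 in Trsp-Ins1KO. The groups followed the order seen for Tagln, with a difference from TrspFF of -0.50 in Trsp-Ins1KO (SE 0.11, limma adjusted p = 0.0921, and 0.0472 with trend and robust eBayes) and -0.28 in Trsp-RIPKO (adjusted p = 0.217). Srf, serum response factor, was 0.29 higher in Trsp-RIPKO than in TrspFF (adjusted p = 0.148) and differed by 0.05 in Trsp-Ins1KO (adjusted p = 0.75). Jag1, a Notch ligand, was higher than in TrspFF in both knockouts, by 0.39 in Trsp-RIPKO (adjusted p = 0.1) and 0.38 in Trsp-Ins1KO (adjusted p = 0.0946). Notch3, the Notch receptor of mural cells, differed by 0.23 and 0.18 (adjusted p = 0.31 and 0.392). Acvrl1, a TGF-beta family receptor of endothelium, was 0.53 higher in Trsp-RIPKO than in Trsp-Ins1KO (SE 0.12, adjusted p = 0.263).

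Relatives of the members by gene family were tested for 19 of 20 genes, and 0 were called. Cnn2, the calponin of non-muscle cells, was lower than in TrspFF in both knockouts, by 0.58 in Trsp-RIPKO (SE 0.10, limma adjusted p = 0.076) and 0.55 in Trsp-Ins1KO (SE 0.10, adjusted p = 0.0768). The Cnn1 estimates were -0.21 and -0.08, with intervals that hold those of Cnn2. Tagln2, a transgelin of many cell types, was 0.52 lower in Trsp-Ins1KO (SE 0.11, adjusted p = 0.0921, and 0.0485 with trend and robust eBayes), and its difference in Trsp-RIPKO was -0.11 (adjusted p = 0.579). Nes, the intermediate filament nestin, was 0.54 higher in Trsp-RIPKO than in Trsp-Ins1KO (SE 0.09, adjusted p = 0.263). Acta1, the skeletal muscle actin, had a difference of 0.57 in Trsp-Ins1KO from TrspFF (SE 0.26, adjusted p = 0.236), opposite in sign to Acta2. Acta1 is also in the skeletal muscle list below, and the specificity of the Acta1 and Acta2 probes was not tested.

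None of 14 endothelial markers was called in any comparison. All 14 had lower means in Trsp-Ins1KO than in TrspFF (median -0.31) and 13 of 14 had higher means in Trsp-RIPKO than in Trsp-Ins1KO (median 0.71), the direction of the members in both comparisons. Against TrspFF they differed from the members: 10 of 14 were higher in Trsp-RIPKO (median 0.38), where the members had 2 higher and 4 lower means (median -0.11). Their summed signal, as log2 relative to the 75th percentile, was 4.36 and 4.51 in TrspFF, 4.51 to 4.56 in Trsp-RIPKO, and 4.21 and 4.30 in Trsp-Ins1KO. That of the 6 members was 0.94 and 0.97 in Trsp-Ins1KO and between 1.33 and 1.55 on the other 4 arrays. Tie1, an endothelial receptor kinase, had levels of -4.03 and -3.37 in TrspFF, -3.04 and -2.80 in Trsp-RIPKO, and -4.62 and -4.44 in Trsp-Ins1KO. Its difference between the knockouts, 1.61, was the largest of the 14. Pecam1 and Egfl7 differed there by 0.05 and 0.03, and Kdr by -0.20. All 14 markers were well above background on every array. Their part in the members' values was not tested.

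Markers of tissue outside the hypothalamus differed between arrays of the same genotype. The 12 choroid plexus markers had a mean centred level of -2.60 on Trsp-Ins1KO 2, 0.07 on Trsp-Ins1KO 1 and 0.45 to 0.97 on the other 4 arrays. Of these markers, 10 of 12 had both Trsp-Ins1KO arrays below both TrspFF arrays, against 26.4% of all genes. Slc4a5 is 1 of the 10 and was kept through the other genotypes, with 1 of 2 Trsp-Ins1KO arrays well above background. The median difference of the 12 markers from TrspFF was -2.01, and 0 were called, where 1.82% of all genes were. They had summed signals of 6.47 and 7.14 in TrspFF, 6.52 and 6.72 in Trsp-RIPKO, and 4.14 and 6.24 in Trsp-Ins1KO. The 12 markers of fibroblasts and meninges, whose vessels carry smooth muscle, stood at -1.14 on Trsp-Ins1KO 2 and at -0.21 to 0.69 elsewhere, with summed signals of 3.25 and 3.85, 2.97 and 3.36, and 2.34 and 3.41. All 12 were well above background on every array. Without Trsp-Ins1KO 2 the differences from TrspFF were -0.67 for Acta2, -0.87 for Myh11, -0.62 for Tagln, -0.68 for Rgs5 and -0.08 for Pdgfrb. The array kept, Trsp-Ins1KO 1, also had lower choroid plexus signal than TrspFF, and the part of these tissues in the members' values was not tested. The 7 tested skeletal muscle markers had a mean centred level of 1.02 to 1.26 on TrspFF 1 and both Trsp-Ins1KO arrays and of -1.23 to -1.02 on the other 3. Their summed signals were -0.72 and 0.91 in TrspFF, -0.61 and -0.49 in Trsp-RIPKO, and 0.97 and 1.25 in Trsp-Ins1KO. From 5 to 7 of them were well above background on each array. Ckm, with levels from -8.90 to -4.99, was kept through Trsp-Ins1KO, where it was high. It was well above background on 1 of 2 TrspFF arrays and 0 of 2 Trsp-RIPKO arrays. Tnnt3 was well above background on 1 of 2 TrspFF arrays. Both enter the list mean, so its size is uncertain. Not every marker followed the list mean: Atp2a1 lay between -2.91 and -2.46 on all 6 arrays, and was 0.27 lower in Trsp-Ins1KO than in TrspFF. Arrays with high skeletal muscle signal therefore include both with the lowest Acta2, Myh11 and Tagln, and also TrspFF 1, which had the highest Tagln and Cnn1 levels. Without TrspFF 1 Acta2 differed by -0.68 and Myh11 by -1.06.

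**Figure D4:**
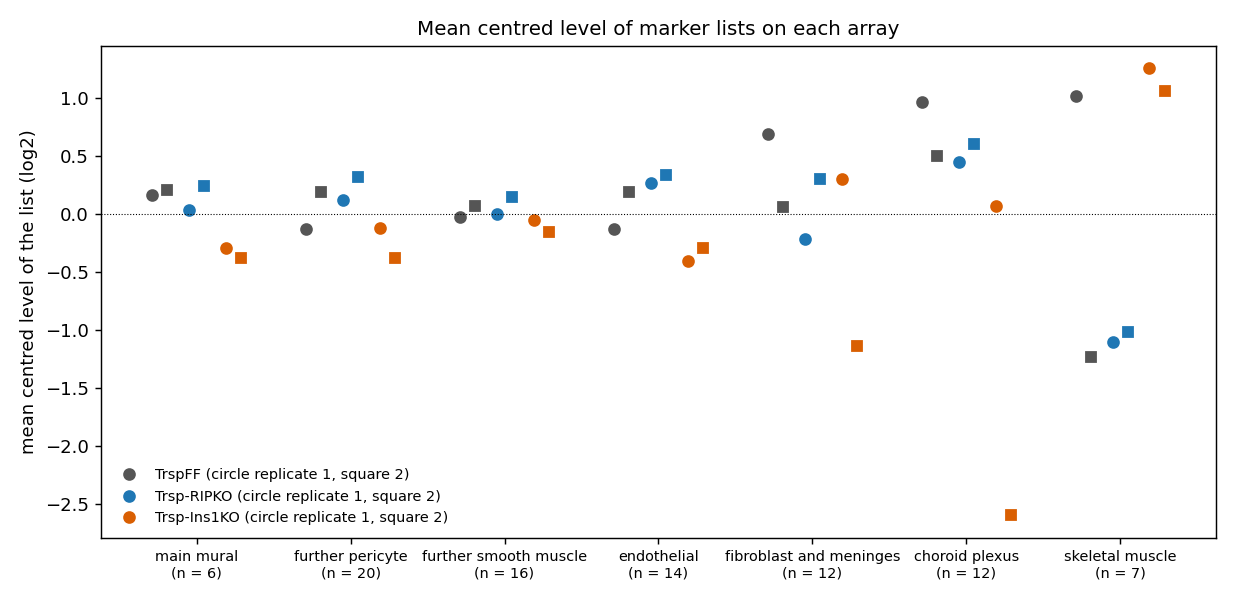
Mean centred level (log2) of the tested genes of each list on each array, with circles for replicate 1 and squares for replicate 2. The main mural and endothelial lists are lowest on both Trsp-Ins1KO arrays; choroid plexus and fibroblast lists are lowest on Trsp-Ins1KO 2, and the choroid plexus list is next lowest on Trsp-Ins1KO 1; the skeletal muscle list splits TrspFF 1 and both Trsp-Ins1KO arrays from the others.

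Markers of several other cell types leaned one way in Trsp-Ins1KO against TrspFF as well, with 0 called. The 6 neuron markers did not, with 3 higher and 3 lower means (median 0.02), and their median between the knockouts was 0.00. The 12 neuropeptide genes had a median of 0.69, with 11 higher means, and 6 of 6 ependymal markers had higher means (median 0.37). Their summed signals were 6.68 and 6.77, 6.66 and 6.96, and 7.43 and 7.45 for the neuropeptides in TrspFF, Trsp-RIPKO and Trsp-Ins1KO, and 2.78 and 3.30, 2.39 and 3.14, and 3.27 and 3.59 for ependymal markers. The neuropeptide and ependymal lists thus lay opposite in sign to the members. Of 6 oligodendrocyte markers, 5 had lower means and 1 a higher mean (median -0.33), the direction of the members. Between the knockouts all 6 had every Trsp-RIPKO level above the Trsp-Ins1KO levels (median 0.28), against 22.9% of all genes. Against TrspFF, 6 of 6 microglia markers (median 0.21) and 7 of 8 astrocyte markers (median 0.13) had higher means in Trsp-Ins1KO. The part of these lists in the members' values was not tested.

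The TrspFF arrays were themselves unlike for most endothelial and further pericyte genes. TrspFF 1 was below TrspFF 2 for 14 of 20 further pericyte genes (70.0%) and 12 of 14 endothelial genes (85.7%), against 44.6% of all tested genes. It was below for 9 of 16 further smooth muscle genes (56.2%) and for 3 of the 6 members. The summed signal of the further pericyte genes was 4.63 on both TrspFF arrays. For 10 of 20 further pericyte genes, TrspFF 1 lay nearer the Trsp-Ins1KO mean and TrspFF 2 nearer the Trsp-RIPKO mean, as for 11 of 14 endothelial genes (78.6%) and 25.2% of all genes. Of the 6 members, 2 followed that split (33.3%). All 6 had TrspFF 2 nearer Trsp-RIPKO, as did 61.6% of all genes.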

How the data were processed

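Hypothalamic RNA from 3 genotypes was measured on 6 Agilent mouse arrays labelled with Cy3, per the labels. Per the file headers, Agilent Feature Extraction 10.7.3.1 wrote the deposited intensity of each spot, background-subtracted, on an mm9 grid; arrays, not read depth, limit the precision. The deposited value table holds log2 values centred on each probe by the authors, with column medians of -0.05 to 0.05; the sources used here do not give its scaling, and it served only as an alternative.

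Outlier-flagged and control spots were left out, and spots of a probe were averaged on the log2 scale, giving 39429 probes from 43020 spots. Each array was centred on its 75th percentile. Symbols came through transcript accessions and the GRCm38.p6 RefSeq table (66.1% of probes). Kept probes (28065) had both arrays of some genotype well above background, and the brightest stood for each gene (22863 genes). limma 3.58.1, under R 4.3.3, was fitted to the 6 arrays together (lmFit, eBayes, 4.87 degrees of freedom, Benjamini-Hochberg at 0.05) and gave differences with moderated standard errors; the script was tested on simulated data. jsonlite 2.0.0 read the labels.

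The 7 genes, the other lists and the tests were chosen with earlier results of these data known, so no list received a test of its own. From each other list, genes past the threshold, otherwise up to 4 with the smallest p per comparison, and genes a pathway sentence needed could be named. Genes faint in a group or opposite to their list were named besides. Of the 3 genes found most alike to each member, 1 or 2 are given. Replicate numbers do not pair the arrays: correlations of replicate 1 minus replicate 2 between genotypes were -0.03, 0.09 and -0.02. Slide could not enter the fit. Alternatives were normexp with an offset of 50, quantile normalization, median scaling, the deposited table, other filters, probe rules and eBayes options, the 2 groups alone, a replicate block and leaving out each array.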

Additional observations from a re-analysis of the deposited data

How the results depend on the processing

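No member was called under any of 17 settings in any comparison, except 1 (Acta2, Trsp-Ins1KO minus TrspFF) with trend and robust eBayes. The median difference of the tested members in Trsp-RIPKO minus TrspFF (-0.11) was -0.02 with quantile normalization, 0.00 with median scaling, 0.16 over the members with the further lists, and -0.22 to 0.02 leaving out each array. In Trsp-Ins1KO minus TrspFF (-0.58) it was -0.24 with the further lists and -0.64 to -0.52 leaving out each array. Between the knockouts (0.58) it was 0.38 with normexp, 0.47 without a filter, 0.45 with a filter on all arrays, 0.44 with the further lists, and 0.48 to 0.63 leaving out each array. Small differences changed sign. In Trsp-RIPKO minus TrspFF, Myh11 was 0.01 with quantile normalization; Rgs5 was 0.06 with median scaling, 0.12 without TrspFF replicate 2 and 0.04 without Trsp-RIPKO replicate 1; Cnn1 was 0.02 without TrspFF replicate 1; and Acta2 was -0.08 without Trsp-RIPKO replicate 2. Over each array left out, Acta2 spanned -0.08 to 0.27, Cnn1 -0.44 to 0.02 and Rgs5 -0.22 to 0.12 there, and Cnn1 -0.31 to 0.15 in Trsp-Ins1KO minus TrspFF. In Trsp-Ins1KO minus TrspFF, Cnn1 was 0.02 with quantile normalization, 0.00 with median scaling, 0.15 without TrspFF replicate 1 and 0.05 without Trsp-Ins1KO replicate 2. The cause of these shifts was not tested.

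With the deposited table read by its own column names, an alternative chosen after seeing the data, the medians were -0.58, -0.11 and -0.58. Acta2 and Pdgfrb were then -0.72 and -0.31 in Trsp-RIPKO and 0.09 and 0.43 in Trsp-Ins1KO. Between the knockouts Acta2, Myh11, Tagln, Cnn1, Pdgfrb and Rgs5 were -0.81, -0.71, -0.27, 0.13, -0.74 and -0.45, as exchanged names require.

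Counts over all genes moved more. In Trsp-RIPKO minus TrspFF (379 called) they were 224 with median scaling, 785 with trend and robust eBayes, 0 without a filter or with the 2 groups alone, and 0 to 495 leaving out each array. In Trsp-Ins1KO minus TrspFF (416) they were 25 without a filter, 1240 with trend and robust eBayes, 0 with the 2 groups alone and 0 to 511 leaving out each array. Between the knockouts (4) they were 1 with normexp, without a filter, or with trend and robust eBayes, 2 with a filter on all arrays, 318 with the 2 groups alone (162 higher, 156 lower) and 0 to 318 leaving out each array. The lower share of calls in Trsp-Ins1KO minus TrspFF was 86.8%, 68.5% with normexp and 54.6% with trend and robust eBayes. In Trsp-RIPKO minus TrspFF it was 94.2%, and 75.4% with trend and robust eBayes. A replicate block left 0 calls in each comparison and changed no call of a member. An array left out leaves 1 in its group, assumed to vary like the others.

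The limits are 2 arrays per genotype, a slide that cannot be told apart from TrspFF, exchanged knockout names, and probes near background for Myh11 and Des.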
